A study of Mus musculus with 5 samples.

Results

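Bex1, Bex2, Bex4, Tceal1 and Tceal8 are 5 X-linked genes of 1 family of small adaptor proteins, followed here in mouse lung epithelial cells after knockdown of the transcription factor gene Grhl2. Each was taken as the probe set whose only platform symbol is that gene, which gave 5 probe sets of the 21640 with a single symbol. The set was chosen by its measured change in this comparison, in which Bex1 rose more than any other gene, so the differences of the 5 genes between knockdown and control are given as descriptions, with no test.

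The cells were MLE-15, a mouse line grown from lung tumours of animals that carried the SV40 large T antigen under the promoter of human surfactant protein C. All cultures were infected for 16 h with a GFP-marked lentivirus, with polybrene, at a multiplicity of infection of 50 and selected with puromycin at 5 µg/ml for 6 days. In 3 cultures the virus carried an shRNA against Grhl2, for which a single hairpin is named, and in 2 control cultures a non-silencing shRNA. Each culture was its own transduction and gave 1 Affymetrix array, and the series asked which genes depend on Grhl2 in lung epithelium. Values are log2 expression.

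The medians of the arrays, 5.29 to 5.32, were made alike by the normalization and carry no information on their signal, and the number of arrays limits the precision. Grhl2 (probe set 10423770) read 7.43, 7.43 and 7.60 in the knockdown against 7.77 and 7.68 in the control, which leaves 85.0% of the control signal. That difference missed the threshold, a Benjamini-Hochberg adjusted p under 0.05 (log2 fold change −0.24, SE 0.065, limma adjusted p = 0.082), and an exact two-sided permutation test gave p = 0.2, where 0.1 is the smallest the design allows. All 5 epithelial markers examined (Epcam, Cdh1, Krt8, Krt18 and Cldn4) and 7 of 9 alveolar type II markers passed the filter on low signal, a mean log2 value of at least 4.22. Of the type II markers, Lamp3 and Slc34a2 were below it. Also above it were all 5 fibroblast markers, 3 of 4 endothelial markers and 2 of the 4 leukocyte markers with a probe set (Cd68 and Cd3e, but not Ptprc), so passing the filter does not mark a cell type. The summed signal of the epithelial markers was 13.521 to 13.585 (log2) on the knockdown arrays and 13.588 to 13.627 on the control arrays. That of the type II markers was 12.67 to 12.76 on the knockdown and 12.70 to 12.72 on the control arrays. The fibroblast, leukocyte and endothelial lists reached at most 7.92. Among these markers limma called 1 of 5 epithelial genes and 2 of 7 type II genes, against 6.38% of all 14979 tested genes. In the other 3 lists it called 0 of 10. The unadjusted limma p was under 0.05 for 1 of the 5, 3 of the 7 and 0 of the 10, against 23.1% of all tested genes. Cldn4, a tight junction protein, fell by 0.42 (limma adjusted p = 0.045), the surfactant protein gene Sftpd fell by 0.33 (0.021), and Napsa, an aspartic protease that processes surfactant protein, rose by 0.36 (0.010). Without control replicate 1 none of the 3 passed, with log2 fold changes of −0.25, −0.36 and 0.38 and limma adjusted p-values of 0.113, 0.097 and 0.060. Without control replicate 2 the adjusted p was 0.031, 0.134 and 0.084, the Cldn4 call was lost without any 1 of the knockdown arrays (0.097 to 0.110) and with no filter (0.082), and that of Sftpd without knockdown replicate 2 (0.063). With the replicate number as a block, the limma adjusted p was 0.113 for Cldn4, 0.052 for Sftpd and 0.062 for Napsa. Whether these changes have a part in the rise of Bex1 was not tested. The arrays were made from whole cultures, where fewer cells of a type and less RNA per cell cannot be told apart.

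Bex genes ("brain expressed X-linked") and Tceal genes ("transcription elongation factor A-like") arose together in mammals and encode short, largely unstructured proteins. They are best known from neurons and from tumours, where some Bex promoters are silenced by DNA methylation. Bex1 and Bex3 proteins bind the intracellular part of Ngfr, the low-affinity neurotrophin receptor, while Tceal proteins resemble part of an elongation factor of RNA polymerase II and are linked to control of transcription.

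The promoters are shown first, because Bex1 and Bex4 have nearly the same one and Bex2 shares another with Bex3. The windows come from RefSeq (GRCm38.p6), where all 5 members had one, and run from 250 bases before to 50 bases after each start. Those of Bex1 and Bex4 matched at 288 of 294 bases (98.0%) when shifted by 6 bases, with an identical run of 271 bases. The genes lie on opposite strands, with Tceal8 and Tceal5 as the protein-coding genes between them. The 270 bases shown of each run 5′ to 3′ and end soon after the start, with the motif TGACG and the motif CACGTGA, which contains an E-box, in capitals where the first comes shortly before the second.
Bex1, chrX:136215494-136215763, minus strand: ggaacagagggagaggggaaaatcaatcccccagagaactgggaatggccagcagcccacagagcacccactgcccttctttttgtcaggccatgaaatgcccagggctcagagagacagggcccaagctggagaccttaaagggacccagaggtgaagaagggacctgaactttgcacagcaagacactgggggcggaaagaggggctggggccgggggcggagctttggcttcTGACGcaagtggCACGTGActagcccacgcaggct
Bex4, chrX:136138746-136139015, plus strand: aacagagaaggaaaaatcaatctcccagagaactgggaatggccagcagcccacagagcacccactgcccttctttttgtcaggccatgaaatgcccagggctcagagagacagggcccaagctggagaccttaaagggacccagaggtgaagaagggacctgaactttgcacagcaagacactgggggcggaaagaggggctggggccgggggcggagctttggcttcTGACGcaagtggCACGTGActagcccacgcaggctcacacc

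Bex2 shared its promoter with Bex3 rather than with Bex1. Their windows held an identical run of 162 bases, while the longest run that Bex2 shared with Bex1 was 9 bases. The run is given once, since Bex3 has the same bases at chrX:136270071-136270232 on the plus strand.
Bex2, chrX:136068220-136068381, minus strand: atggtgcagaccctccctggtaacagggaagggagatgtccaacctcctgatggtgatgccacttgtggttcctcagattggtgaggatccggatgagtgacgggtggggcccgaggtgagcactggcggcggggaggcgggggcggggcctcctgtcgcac

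Tceal1 and Tceal8 had promoters unlike those of the Bex genes apart from a short element near the start. It is shown here beside that of Bex3, with the same letters in capitals.
Tceal1, chrX:136707952-136707996, plus strand: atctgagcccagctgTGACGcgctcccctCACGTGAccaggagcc
Tceal8, chrX:136172227-136172281, minus strand: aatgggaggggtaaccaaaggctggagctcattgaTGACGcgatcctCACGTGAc
Bex3, chrX:136270259-136270288, plus strand: ttggcagTGACGcagggccctCACGTGAcc

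The element was searched on both strands with its letters and spacing chosen after the sequences had been seen. The arrangement of TGACG, then any 7 bases, then CACGTGA was present for Bex1, Bex4 and Tceal8 and for 5 other genes of the wider family, Tceal3, Tceal5, Tceal6, Armcx1 and Armcx6. In the whole table it was found in 12 of 32851 windows (0.0365%), and 10 of those 12 belonged to these 8 genes, some of which have overlapping windows. The other 2 were windows of Ubap2 and Vps33a. Tceal1, Bex3 and Armcx4 had 9 bases between the motifs in place of 7, an arrangement found in 6 windows (0.0183%). CACGTGA on its own was present in 4 of 5 members and in 3.77% of all windows, and a hit on one strand overlaps a hit on the other where a T precedes it. The window of Bex2 held TGACG, found in 20.8% of all windows, but not CACGTGA. The Bex2 and Bex3 windows align at a shift of 37 bases, which puts the place of the Bex3 element past the end of the Bex2 window. The search therefore cannot show whether Bex2 has the element there. The Grainyhead-type sequences AACCGGTT and AACNNGTT were in none of the 5 windows and in 0.146% and 4.2% of all windows, which overlap since every AACCGGTT is also an AACNNGTT. A match of letters is a description and does not show a bound site.

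Bex1 (probe set 10606868), the adaptor of neurotrophin receptor signalling, was clearly higher on every knockdown array. It was at 7.12, 7.08 and 7.16 in the knockdown cultures and at 5.72 and 5.48 in the controls. The groups did not overlap, and the 3 knockdown arrays lay within a narrow range. The means were 7.12 ± 0.04 (SD, n = 3) and 5.60 ± 0.17 (SD, n = 2), a 2.87-fold rise with a log2 fold change of 1.52 (SE 0.073). This was the first of 14979 tested genes in order of rise, and also the first of 19937 with no filter on low signal. Leaving out control replicate 1 gave 1.64, and leaving out control replicate 2 gave 1.40.

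The probe set listed for Bex4 (10358457), the gene whose promoter is nearly that of Bex1, had a lower mean in the knockdown that rested on 1 control array. Its place on the genome is in doubt: of the 10 probe sets numbered nearest to it with a placed gene, 9 carry genes of chromosome 1 and 0 carry X-linked genes, while for each of the other 4 members all 10 carry X-linked genes. Whether its values measure the X-linked Bex4 was not tested. It was at 2.56, 2.50 and 2.70 in the knockdown cultures and at 3.60 and 2.49 in the controls. Control replicate 1 stood apart, and control replicate 2 was lower than every knockdown array, so the groups overlap. The mean difference of −0.46 (log2) became 0.09 once control replicate 1 was left out. Control replicate 1 was also the array with the higher control value for Bex1, Tceal8 and Grhl2, but the lower one for Bex2 and Tceal1.

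A further probe set (10601850) is annotated to Bex4 and Bex1 together and was not counted as a member. It was at 3.46, 3.36 and 3.22 in the knockdown cultures and 3.06 and 3.01 in the controls. All 3 knockdown arrays were above both control arrays, with a difference of 0.31. Its signal was below the filter, and groups did not overlap for 36.1% of the 19937 genes with no filter. The RefSeq table also lists Bex4 as an older name of Bex1, and Bex1 as an older name of Bex2. Probe sequences were not used here, and whether probes of one gene also bind transcripts of the other was not tested.

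Bex2 (probe set 10606835), linked to the survival and cell cycle of tumour cells, showed no separation of the groups. It was at 3.10, 3.23 and 3.27 in the knockdown cultures and at 3.22 and 3.49 in the controls. The log2 difference was −0.16 (SE 0.091 in the fit with no filter), or −0.02 with control replicate 2 left out.

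Of the 2 Tceal members, only Tceal8 had groups that did not overlap. That held for 36.1% of the 19937 genes with no filter. Tceal8 and Tceal1 both lay below the filter on low signal, with means over the arrays of 3.85 and 3.76. Tceal8 (probe set 10606858) was at 3.58, 3.81 and 3.64 in the knockdown cultures and at 4.21 and 4.04 in the controls. Every knockdown array was below both control arrays, with means of 3.68 ± 0.12 (SD, n = 3) and 4.12 ± 0.12 (SD, n = 2). That is 1.36-fold lower, a log2 fold change of −0.45 (SE 0.085 in the fit with no filter), which lay between −0.53 and −0.36 whichever array was left out. Tceal1 (probe set 10601878), a nuclear phosphoprotein that modulates transcription, was at 3.80, 3.86 and 3.77 against 3.59 and 3.79. Its groups overlap, and the log2 fold change was 0.12, or 0.02 without control replicate 1.

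**Figure D1:**
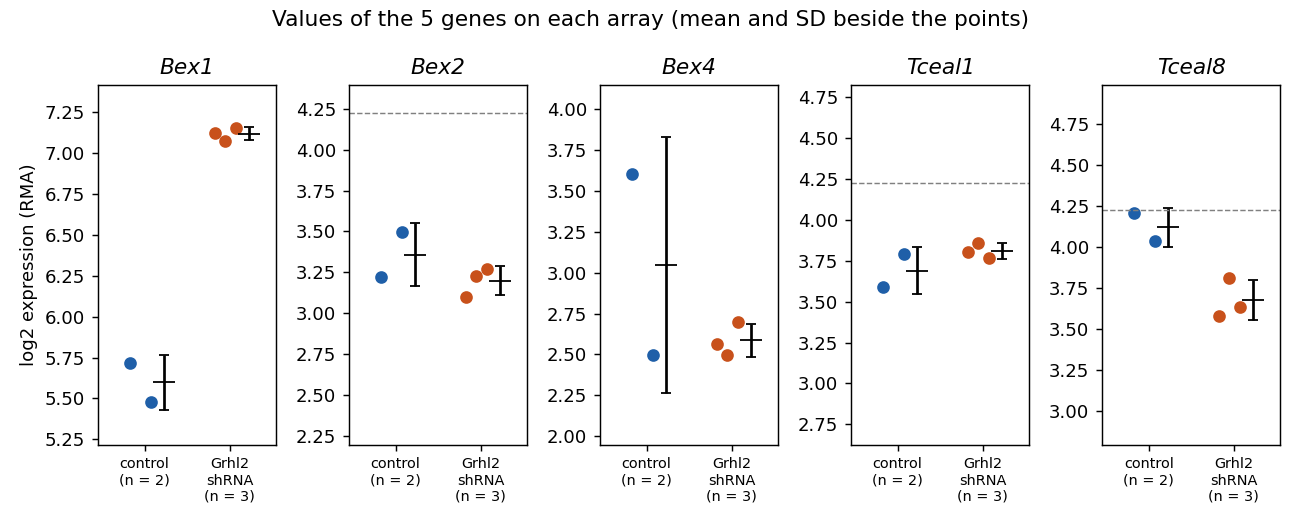
Log2 expression (vertical axis, RMA) of Bex1, Bex2, Bex4, Tceal1 and Tceal8 on each of 2 control (blue) and 3 Grhl2 shRNA (orange) arrays. The group mean and SD are in black, and the filter on low signal (4.22) is a dashed line, which falls outside the panels of Bex1 and Bex4. Every panel spans the same number of log2 units. Bex1 lies above 7 in the knockdown and below 6 in the control, Tceal8 is lower in the knockdown, and the other 3 overlap.

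Only Bex1 of the 5 members passed the filter on low signal, which removed probe sets with a mean log2 value below 4.22, the 25th percentile. The other 4 had means over the arrays of 2.77 to 3.85 and so were not part of the test across genes. Over all 14979 tested genes, 6.38% passed the threshold (limma, Benjamini-Hochberg adjusted p under 0.05). Bex1 was chosen as the largest rise, so its own result in that test is not given. Groups did not overlap for 2 of the 5 members, Bex1 and Tceal8, against 36.1% of the 19937 genes with no filter. Since the members were chosen on this comparison, nothing is read from that count. Bex4 and Tceal8 were at places 89 and 100 in order of fall among those 19937 genes. Signals this low do not show whether Bex2, Bex4, Tceal1 and Tceal8 were expressed.

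**Figure D2:**
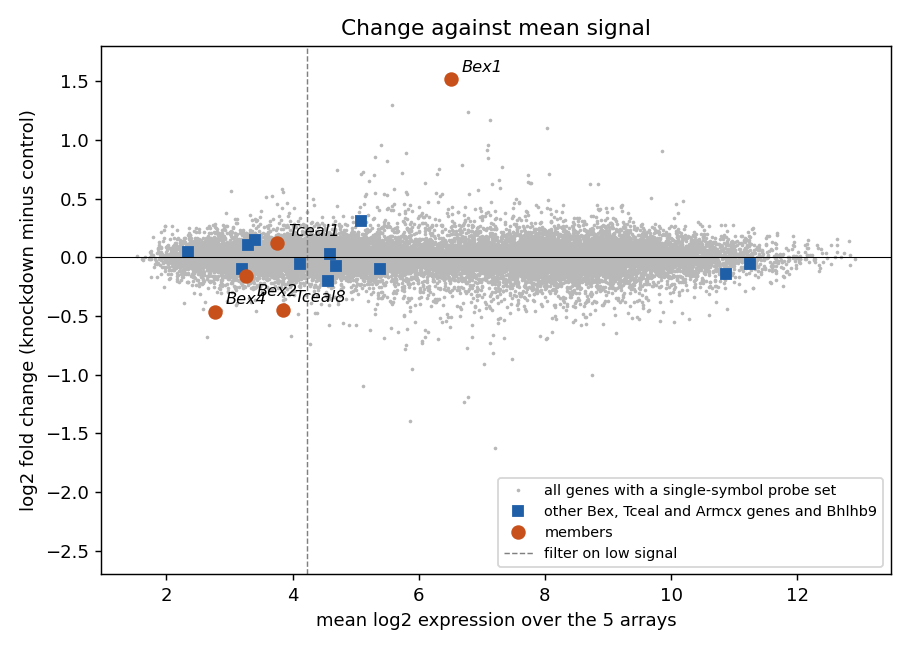
Log2 fold change (knockdown minus control, vertical axis) against mean log2 expression over the 5 arrays (horizontal axis) for 19937 genes (grey), the 5 members (orange) and 12 other genes of the wider family (blue squares), with the filter on low signal at 4.22 as a dashed line. Bex1 is the highest point at 1.52, the other members lie left of the line, and the other family genes lie between −0.20 and 0.31.

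**Figure D3:**
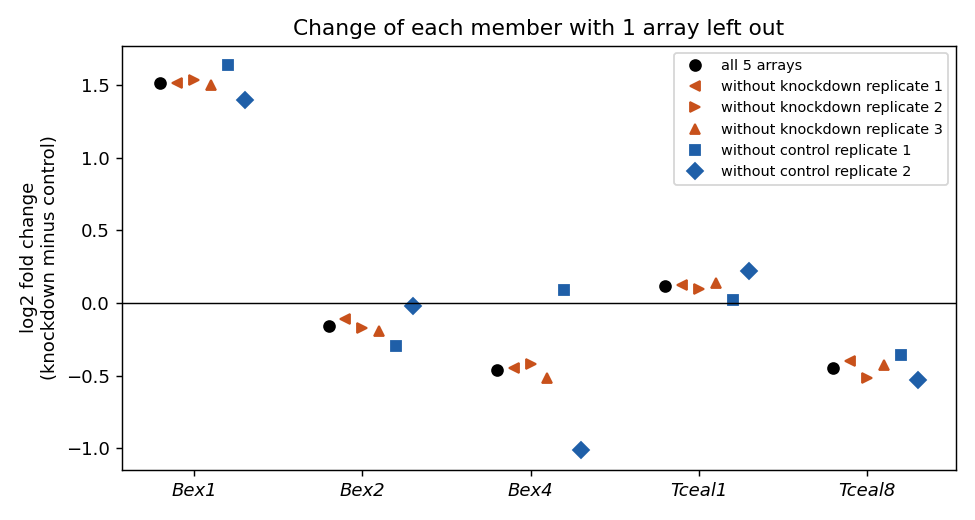
Log2 fold change (vertical axis) of each member with all 5 arrays (black) and with each knockdown (orange) or control (blue) array left out. Bex1 stays between 1.40 and 1.64, while Bex4 moves between −1.02 and 0.09 with the control array left out.

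None of the tested genes in the wider family passed the threshold. Of 16 further Bex, Tceal, Armcx and Gprasp-type genes, 7 were tested and limma called 0, against 6.38% of all genes, while 3 of the 7 had an unadjusted p under 0.05, against 23.1% of all genes. A further 5 were below the filter, 3 (Tceal3, Gprasp1 and Gprasp2) were only on probe sets with several symbols, and Tceal7 was not analysed here. The median log2 fold change of the 7 was −0.07, beside 0.002 over all genes, and 5 of the 7 were below 0.

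Bex3 (probe set 10601857), which also binds the neurotrophin receptor and is linked to cell death, was well above the filter and nearly level. It was at 11.24, 11.20 and 11.23 in the knockdown cultures and at 11.26 and 11.30 in the controls. The log2 fold change was −0.06, with a 95% confidence interval of −0.16 to 0.04 (limma adjusted p = 0.47), so a rise of the size of that of Bex1 lies outside it. Tceal9 (probe set 10601854) was at 10.82, 10.77 and 10.83 against 10.91 and 11.00. All its knockdown values were lower, by 0.15 on average (SE 0.048, limma adjusted p = 0.126), which missed the threshold. A trended, robust variance prior called it (limma adjusted p = 0.017).

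Armcx genes encode armadillo-repeat proteins, several of which sit on mitochondria. Armcx2 (probe set 10606735) was at 5.08, 5.26 and 5.28 in the knockdown cultures and 5.01 and 4.79 in the controls. Its log2 fold change of 0.31 (SE 0.086) missed the threshold (limma adjusted p = 0.080), and the trended, robust prior called it (limma adjusted p = 0.037). Armcx1 (probe set 10601771) was at 4.46, 4.46 and 4.53 against 4.73 and 4.63, a difference of −0.20 (limma adjusted p = 0.061). These 2 paralogs thus had values of opposite sign, both with groups that do not overlap, as was so for 36.1% of the 19937 genes with no filter. Armcx3, Armcx4 and Armcx6 had log2 fold changes of 0.03, −0.07 and −0.10, and the sign of each changed with 1 array left out. A second Armcx3 probe set (10451851), below the filter, differed by −0.13. Armcx5 (probe set 10450796), Bhlhb9, Bex6, Tceal5 and Tceal6 were below the filter, with log2 fold changes of 0.15, 0.05, −0.10, 0.11 and −0.06. The second Armcx3 probe set and that of Armcx5 are numbered far from the other Armcx probe sets, so their place is in doubt like that of Bex4. Whether they measure these X-linked genes was not tested.

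Genes next to the members on the X chromosome included no called gene. The 3 genes on each side of each member that had a single-symbol probe set came to 12 genes besides the members. Of these, 4 passed the filter (Tceal9, Bex3, Morf4l2 and BC065397), with log2 fold changes from −0.15 to 0.06. Limma called 0 of the 4, against 6.38% of all tested genes. The unadjusted p was under 0.05 for 1 of the 4, Tceal9, against 23.1% of all tested genes. With 4 genes, nothing is read from these counts. The other 8 were below the filter and ranged from −0.31 (Arxes2) to 0.27 (Kir3dl2). Among genes with a single-symbol probe set, those on either side of Bex1 were Tceal5, at 0.11, and Tceal9, at −0.15. The promoter window of Tceal7, which was not analysed here, lies between those of Bex1 and Tceal9.

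**Figure D4:**
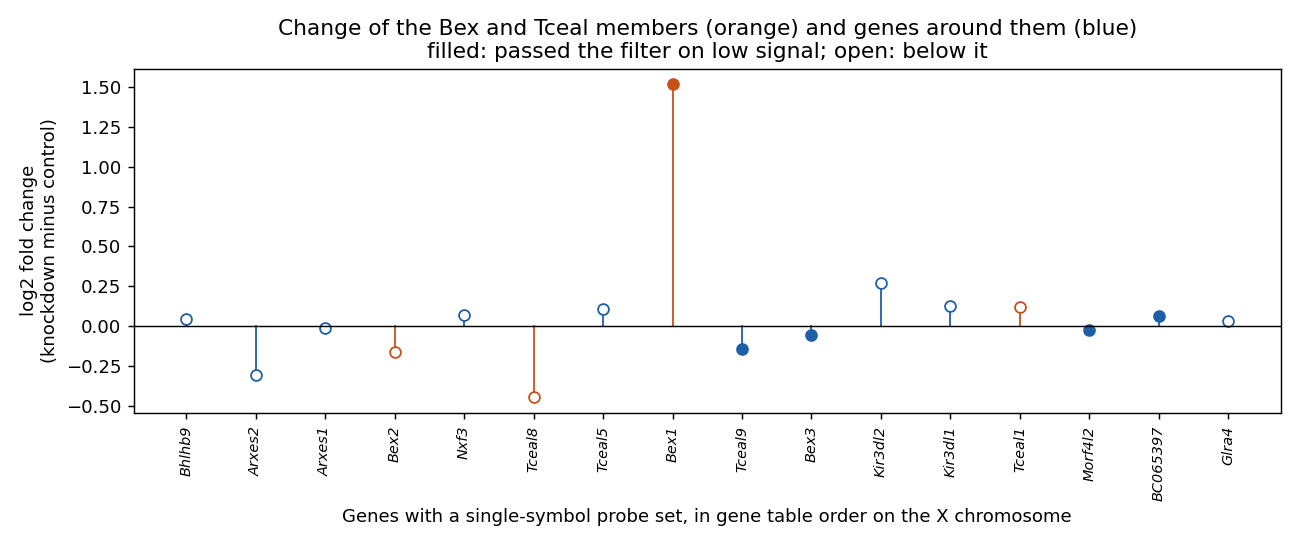
Log2 fold change (vertical axis) of 16 genes in the order of the RefSeq gene table on the X chromosome (horizontal axis, not to scale in distance), with members in orange, other genes in blue, and open circles for genes below the filter on low signal; Bex4 is left out because the place of its probe set is in doubt. Bex1 stands at 1.52 between Tceal5 at 0.11 and Tceal9 at −0.15, and Tceal7, which lies between Bex1 and Tceal9, is not shown.

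In neurotrophin signalling, which Bex1 and Bex3 touch through their receptor partner, the share of genes called was near that over all genes. Of 26 genes listed, 15 were tested, of which 1 fell (6.67%, against 6.38% of all genes), none rose and 14 did not pass (median log2 fold change 0.008). Sort1, or sortilin, a co-receptor of Ngfr for pro-neurotrophins, was at 8.16, 8.07 and 8.15 in the knockdown cultures and 8.54 and 8.55 in the controls. It fell by 0.42 (SE 0.046, limma adjusted p = 0.0065), and the groups did not overlap. With control replicate 1 or 2 left out, the log2 fold change was −0.43 or −0.42 and the limma adjusted p 0.055 or 0.057. Ngfr itself, chosen after its value was seen, was at 8.04, 8.01 and 7.94 against 7.84 and 7.83. That is a difference of 0.17 (SE 0.047) that missed the threshold (limma adjusted p = 0.085), though it passed with the filter at the 50th percentile (limma adjusted p = 0.033) and with the trended, robust prior (0.037). Sorcs2, a relative of sortilin, had a log2 fold change of −0.18 (limma adjusted p = 0.151). The receptor genes Ntrk2 and Ntrk3 were below the filter.

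Transcription elongation genes, the machinery that Tceal proteins are named for, were not called. Of 33 listed, 31 were tested, with 0 called by limma (6.38% of all genes) and 4 with an unadjusted p under 0.05 (23.1% of all genes). Their median log2 fold change was 0.05. The largest values were −0.16 for Ccnt2, a cyclin of the elongation kinase (limma adjusted p = 0.118), and −0.12 for Tcea2, an elongation factor of the TFIIS type (limma adjusted p = 0.124).

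Genes of DNA methylation and X inactivation were examined because Bex genes are X-linked and some are silenced by methylation. Of 30 listed, 24 were tested, of which Xist fell (4.17%, near the 6.38% of all genes), none rose and 23 did not pass (median −0.04). Xist, the RNA that coats an inactive X chromosome, was at 6.05, 6.25 and 6.60 in the knockdown cultures and 7.70 and 7.28 in the controls. It fell by 1.19 on the log2 scale (SE 0.174, limma adjusted p = 0.015). Leaving out control replicate 1 gave −0.98 and leaving out control replicate 2 gave −1.40, with limma adjusted p-values of 0.088 and 0.053. Rlim, an X-linked ubiquitin ligase that activates Xist, had a log2 fold change of −0.20 (limma adjusted p = 0.061). The methyltransferase genes Dnmt1, Dnmt3a and Dnmt3b, chosen after their values were seen, were at −0.06, −0.07 and 0.17, with limma adjusted p-values of 0.49, 0.39 and 0.109.

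Since Bex genes are best known from neurons, markers of neurons and of neuroendocrine lung cells were read on the same arrays. Of 26 listed, 17 were tested, of which 1 rose (5.88%, near the 6.38% of all genes), none fell and 16 did not pass (median −0.03). Ncam1, a cell adhesion molecule of neurons and neuroendocrine cells, was at 7.71, 7.71 and 7.47 in the knockdown cultures and 6.80 and 6.93 in the controls. It rose 1.70-fold (log2 fold change 0.77, SE 0.083, limma adjusted p = 0.0065). Without control replicate 1 or 2 the log2 fold change was 0.71 or 0.83, and the limma adjusted p 0.058 or 0.0502. Map2, a microtubule protein of neurons, had the next largest value, −0.19 (limma adjusted p = 0.119). The vesicle markers Chga and Syp, chosen after their values were seen, were at −0.08 and 0.09, with limma adjusted p-values of 0.51 and 0.50. Rest, likewise chosen, was at 0.04 (limma adjusted p = 0.64). It is a repressor of neuronal genes and not a marker of neurons, but it is counted in the list. The summed signal of the 24 listed genes with a probe set was 10.76 to 10.80 (log2) on the knockdown arrays and 10.74 to 10.75 on the control arrays. Rest had the highest signal among them, with means of 9.37 in the knockdown and 9.33 in the control. The sum is thus not one of markers alone. Whether this difference in summed signal has a part in the rise of Bex1 was not tested.

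The genes whose values followed Bex1 most closely over the 5 arrays were Mcpt8, B4galnt2, Scgb3a1, Cd80 and Themis. They were the first 5 by Pearson correlation among 43 tested genes with an SD over the arrays of at least 0.4, with r from 0.9895 to 0.9998. Predicted genes, RIKEN clones and olfactory or vomeronasal receptor genes were left out before this ranking. Mcpt8, a granule protease, was at 6.16, 6.14 and 6.16 in the knockdown cultures and 5.33 and 5.20 in the controls. As in Bex1, control replicate 1 was the higher control array, and this also held for the other 4. The choice by correlation with Bex1 favours such a shared order. With 5 arrays in 2 groups, these correlations mostly restate that each gene was higher in the knockdown.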

How the data were processed

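RNA of 5 MLE-15 cultures (300 ng each) was measured on 1 array per culture. Per the submitters' processing notes, the authors used the RMA method of Affymetrix Expression Console, which normalizes quantiles between arrays, and deposited its log2 values. The software version is, like the genome build, not given in the sources used here. Of 34760 probe sets, 21640 have 1 gene symbol in the platform annotation.

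Single-symbol probe sets below the 25th percentile of mean signal were left out, and the brightest stood for each gene. The two-sided test was the moderated one of limma 3.58.1 (lmFit, eBayes; R 4.3.3), with Benjamini-Hochberg adjustment over 14979 genes and a threshold of 0.05. The p-values measure the spread between independent transductions of 1 cell line. The test was run on simulated data, with independent values and variances drawn from its own fitted prior. That check cannot show how errors shared within an array affect the p-values.

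Members, lists and tests were chosen with earlier results of these data known. Text names all members and family genes, Grhl2, up to 6 called genes per list or its 2 largest changes, the neighbours and the 5 genes most like Bex1. Alternatives covered filter, probe set, variance prior, array weights, replicate block, scaling and each array left out.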

Additional observations from a re-analysis of the deposited data

Results flagged for a closer look

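The probe set annotated to both Bex4 and Bex1, which none of the comparisons used, had a signal above that of the control arrays on every knockdown array. Its difference was 0.31 on the log2 scale, with means of 3.35 ± 0.12 (SD, n = 3) in the knockdown and 3.04 ± 0.03 (SD, n = 2) in the control. Its signal lay below the filter, and the difference was not tested. Among the other probe sets that list several genes of the family, those for Armcx5 with Gprasp1, Gprasp2 with Gprasp1, and Tceal3 with Tceal5 and Tceal6 had groups that overlap. Groups did not overlap for 36.1% of the 19937 genes with no filter, so nothing is read from this contrast.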

How the results depend on the processing

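The rise of Bex1 kept its direction under every alternative tried, from 1.40 to 1.64 with 1 array left out. With 1 array left out, the log2 fold change ranged from −0.30 to −0.024 for Bex2, from −1.02 to 0.092 for Bex4, from 0.019 to 0.22 for Tceal1 and from −0.29 to −0.19 for Grhl2. That of Grhl2 (−0.24) passed the threshold with the filter at the 50th percentile (limma adjusted p = 0.032), with a trended, robust prior (0.023) and without knockdown replicate 3 (0.047). Its limma adjusted p was not under 0.05 in the other alternatives.

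Calls over all genes numbered 956. They came to 418 with no filter, 1708 with the filter at the 50th percentile, 2034 with the trended, robust prior and 67 to 493 with 1 array left out. The same prior called 2 genes each in the family, neurotrophin, elongation and neuronal lists and 3 in the methylation and X inactivation list. The filter at the 50th percentile called 2 in the neurotrophin list and 2 in the methylation and X inactivation list. With 1 array left out the neurotrophin, neuronal and methylation lists gave 0 to 1 calls, and the family and elongation lists 0. With 1 array left out the log2 fold change of Armcx3 ranged from −0.045 to 0.10 (−0.013 without knockdown replicate 2), that of Armcx4 from −0.16 to 0.017 and that of Armcx6 from −0.18 to 0.011.

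With the replicate number as a block, which gives knockdown replicate 3 no partner, 172 genes were called and the log2 fold change of Bex1 was 1.50. Same-numbered arrays deviated from their group means with correlations of 0.06 and 0.02 across genes, and the labels call every transduction independent, so the numbers were not taken as pairs. Below the filter, 4 of the 5 members are limited by signal.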
